A study of Mus musculus with 57 samples.

Results

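Pdgfra encodes platelet-derived growth factor receptor alpha, a receptor tyrosine kinase whose gene lies on mouse chromosome 5 (chr5:75152292-75198215 in mm10, plus strand). The peaks described here are those of 30 CUT&RUN peak lists whose summit lay within 100 kb of the transcription start site (TSS) of Pdgfra at 75152292. There were 293 such peaks of 775358 in all lists. Peaks that shared at least 1 bp were merged into 47 sites, and each site is called by the distance of its GATA6 2 h summit, or of its strongest summit where GATA6 had none at 2 h, from the TSS. CUT&RUN releases the DNA under a bound factor with an antibody-directed nuclease. The lists came from KH2 embryonic stem (ES) cells of strain C57BL/6 that carry a single-copy, doxycycline-dependent TRE:GATA6-DSREd2 transgene, in every group including the uninduced controls. Cells stood in 2i medium at 0 h and in serum with doxycycline from then on, so that medium and induction cannot be told apart between 0 h and later times. The doxycycline was taken away after 12 h, so that the 24 h and 48 h lists followed a pulse. Antibodies were against GATA6 (0, 2, 4, 8 and 48 h), NANOG and SOX2 (0, 2, 4 and 8 h), and GATA4 and SOX17 (24 h), with 2 lists per factor and time. The study states in general terms that its replicates were done independently, while the labels of these lists number the 2 of a group and do not name their cultures, so the tests measure the spread between these lists. Peak lists hold no expression values, and the cell state at each time was not checked.

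For 3 GATA6 time points the names of the lists and the sample records disagree. The lists named 4 h are recorded as 8 h, those named 8 h as 48 h, and those named 48 h as 4 h. The names are used below for every GATA6 value, and by the record each such value belongs to the other time. The reading by the record is given beside the comparisons between times. An F test over the 4 induced time points is the same under both. In the library labels, the lists named 48 h belong to a different series from the other induced GATA6 lists. Among the induced GATA6 lists, only those named 48 h are marked as merged. Time, library series and merging therefore cannot be told apart where those lists are compared with the others. By the record this holds for 4 h.

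Pdgfra is a well-known early surface marker of the primitive endoderm (PrE), the layer that the inner cell mass of the blastocyst forms beside the epiblast. GATA6 is a zinc finger transcription factor that drives PrE fate and binds GATA sequences, GATA4 and SOX17 are PrE factors that act after it, and NANOG and SOX2 are factors of the epiblast and of ES cells. PDGF ligands bind the receptor outside the cell and the receptor then signals through adaptors, a phosphatase, lipid enzymes and kinases.

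The sites that carried most of the signal lay upstream of the gene, many of them within Gm19583, a long intergenic non-coding RNA gene on the same strand that ends before the Pdgfra TSS. Below are 150 bases around the strongest GATA6 2 h summit of the 8 sites that the results turn on, read 5′ to 3′ on the plus strand from the RefSeq genome GRCm38.p6 (mm10), followed by 3 windows at the summits of other lists that were added after the values had been seen, since the matches differ there. Capitals mark matches on either strand to the hexamer AGATAA, to the hexamer AGATAG, to the hexamer TGATAA or to the hexamer TGATAG, counted also where they overlap.
5.7 kb upstream at chr5:75146496-75146645, in an exon of Gm19583: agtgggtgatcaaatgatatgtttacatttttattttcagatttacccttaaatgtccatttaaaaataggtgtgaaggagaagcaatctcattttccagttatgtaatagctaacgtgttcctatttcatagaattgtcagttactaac
8.6 kb upstream at chr5:75143606-75143755, in an intron of Gm19583: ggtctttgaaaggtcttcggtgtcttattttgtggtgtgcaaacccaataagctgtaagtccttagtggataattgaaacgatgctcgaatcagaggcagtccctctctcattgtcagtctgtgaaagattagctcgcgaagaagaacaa
14.3 kb upstream at chr5:75137944-75138093, in an intron of Gm19583: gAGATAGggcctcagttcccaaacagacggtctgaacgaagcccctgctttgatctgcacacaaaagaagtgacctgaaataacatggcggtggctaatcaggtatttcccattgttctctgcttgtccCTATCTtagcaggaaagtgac
33.9 kb upstream at chr5:75118270-75118419, in an intron of Gm19583: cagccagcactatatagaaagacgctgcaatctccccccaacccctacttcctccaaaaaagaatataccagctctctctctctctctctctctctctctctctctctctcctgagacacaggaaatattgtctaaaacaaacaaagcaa
0.7 kb upstream at chr5:75151550-75151699, between Gm19583 and Pdgfra: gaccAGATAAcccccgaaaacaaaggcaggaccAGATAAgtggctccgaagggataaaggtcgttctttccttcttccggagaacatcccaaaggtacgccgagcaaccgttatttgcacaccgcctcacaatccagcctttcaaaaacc
64.8 kb upstream at chr5:75087413-75087562, intergenic: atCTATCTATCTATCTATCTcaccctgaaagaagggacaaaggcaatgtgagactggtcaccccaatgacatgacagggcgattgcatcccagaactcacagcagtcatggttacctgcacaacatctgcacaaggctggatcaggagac
67.1 kb upstream at chr5:75085098-75085247, intergenic: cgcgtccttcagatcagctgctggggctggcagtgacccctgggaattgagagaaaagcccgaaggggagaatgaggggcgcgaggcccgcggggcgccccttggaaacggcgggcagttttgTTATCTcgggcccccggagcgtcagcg
58.0 kb downstream at chr5:75210220-75210369, past the end of Pdgfra: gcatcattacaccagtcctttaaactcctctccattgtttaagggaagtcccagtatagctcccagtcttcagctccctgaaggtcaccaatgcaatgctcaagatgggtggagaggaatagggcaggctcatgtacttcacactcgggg
5.7 kb upstream at the GATA4 24 h replicate 2 summit, chr5:75146596-75146745: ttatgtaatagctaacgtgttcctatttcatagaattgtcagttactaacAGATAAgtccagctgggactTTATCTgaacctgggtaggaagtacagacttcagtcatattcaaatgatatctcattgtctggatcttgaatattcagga
8.6 kb upstream at the GATA6 8 h replicate 1 summit, chr5:75143771-75143920: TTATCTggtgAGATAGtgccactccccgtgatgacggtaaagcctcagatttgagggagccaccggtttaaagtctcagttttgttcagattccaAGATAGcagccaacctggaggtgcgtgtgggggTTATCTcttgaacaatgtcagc
33.9 kb upstream at the GATA6 48 h replicate 1 summit, chr5:75118427-75118576: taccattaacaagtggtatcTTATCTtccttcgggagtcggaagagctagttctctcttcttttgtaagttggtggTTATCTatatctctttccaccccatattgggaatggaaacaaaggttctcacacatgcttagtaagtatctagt

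In the 2 h windows the letters were present at 6 of the 12 sites that both GATA6 2 h lists held, against 41.3% of the 44768 such windows of the genome. In the 2 h windows printed they were absent at the strongest site, 5.7 kb upstream, and at 8.6 and 33.9 kb upstream. At 5.7 kb a match began at the base directly after the end of the window. At 8.6 kb the window of the replicate 2 summit at 2 h held 3 matches. The 33.9 kb window held an unbroken repeat of the pair CT, 38 bases long. At the site 0.7 kb upstream AGATAA stood at 2 places, with starts 29 bp apart, in the window of the replicate 2 summit, and the window of the replicate 1 summit held no match. At 64.8 kb upstream the 4 matches overlapped in a repeat of CTAT. The RefSeq promoter of Pdgfra (chr5:75152001-75152300, GRCm38.p6) held no match, and 29.8% of the 32851 RefSeq promoters held at least 1. CATTGT, a core of SOX sites, was searched for on both strands in the same windows after the values had been seen. A match describes the letters and is not evidence of binding, and no match says only that the letters are not in that window. CATTGT was present in 4 of the 12, at 8.6, 14.3, 37.5 and 58.0 kb, against 11.6% of the windows of the genome.

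The 30 lists held between 86 and 79358 peaks each. The fragments over each summit could be recovered as whole numbers from the fold enrichment and p-value of a peak in all lists but those of GATA4, and so could the background coverage of the list. That coverage was 0.928 to 1.34 fragments per position for the 8 induced GATA6 lists, 0.865 to 1.31 for NANOG, 1.23 to 1.55 for SOX17 and 0.290 to 0.692 for SOX2. It was 0.287 and 0.315 for the GATA6 0 h lists, the shallowest of the GATA6 lists, which held 86 and 882 peaks. The weakest peaks of a list had 4 to 8 fragments over the summit. Where the local background is raised more are needed, and the weakest called peak had 16 fragments at the site 8.6 kb upstream, 14 at 33.9 kb and 10 at 5.7 kb. A site with no peak is therefore one where the factor was not detectable at this depth, and not one without it.

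GATA6 had no peak near Pdgfra before induction, most of its peaks at 2 h and 4 h, and at 48 h kept a group of sites upstream of the gene, the farthest at 33.9 kb. The GATA6 0 h lists held 0 and 0 peaks near Pdgfra. The 2 h lists held 19 and 17, the 4 h lists 19 and 16, the 8 h lists 12 and 11, and the 48 h lists 6 and 6. The 2 h and 4 h lists overlapped, and the 8 h and 48 h lists lay below both. Over the 4 induced time points the number differed (exact permutation test of the F statistic over 8 lists, two-sided, p = 0.0286, adjusted p = 0.0429 over 3 factors, smallest possible p 0.00952). On the log2(n + 1) scale the 48 h lists lay 1.44 ± 0.08 (SE, n = 2 lists each) below the 2 h lists, a difference of -1.44. The lists named 48 h and 2 h also differ in library series and merging, whose part was not tested. By the record the last pair holds 12 and 11 peaks and the difference is -0.60. The lists as a whole shrank over the same times, from 79358 and 62683 peaks at 2 h to 5933 and 9767 at 48 h. Per 10000 peaks of a list, the locus held 2.55 ± 0.225 (SD, n = 2) in the 2 h lists, 3.46 ± 0.721 in those of 4 h, 3.91 ± 0.386 in those of 8 h and 8.13 ± 2.81 in those of 48 h, so that on this scale the direction was the opposite (1.77 on the log2 scale with 1 added to the number, exact permutation p = 0.0190). By the record that difference is 0.66.

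**Figure D1:**
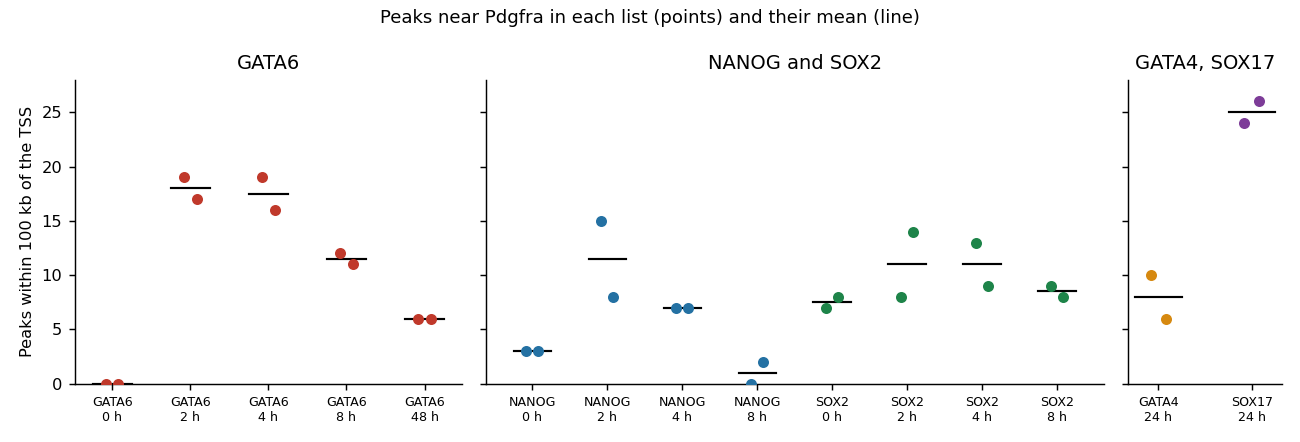
Number of peaks with a summit within 100 kb of the Pdgfra TSS (vertical axis) in each of the 30 lists (points) by factor and time, with the mean of the 2 lists as a line. GATA6 fell from 19 and 17 peaks at 2 h to 6 and 6 in the lists named 48 h, NANOG was highest at 2 h, and SOX17 was highest of all with 24 and 26.

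Both NANOG 0 h lists held 3 peaks near Pdgfra. The 2 h lists held 15 and 8, the 4 h lists 7 and 7, and the 8 h lists 0 and 2. No 2 time points overlapped (p = 0.00952, adjusted p = 0.0286, the same exact permutation test, at its smallest possible p), and the 2 h lists lay 1.58 ± 0.42 (SE) above the 0 h lists on the log2(n + 1) scale. Without the first 2 h list p was 0.0952, and without either 4 h list it was 0.0667 (exact permutation). Per 10000 peaks of a list the 4 times did not pass the test (difference 0.078, exact permutation p = 0.829), the NANOG lists as a whole having 10693 and 16180 peaks at 0 h and 52285 and 26742 at 2 h. SOX2 had 7 and 8 peaks at 0 h, 8 and 14 at 2 h, 13 and 9 at 4 h, and 9 and 8 at 8 h. These overlapped, and the test was not passed (difference between 2 h and 0 h 0.45 ± 0.38, adjusted p = 0.429, exact permutation). Among the strongest 10000 peaks of each list the SOX2 difference turned to -0.42 and the test was passed (exact permutation p = 0.00952).

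GATA4 at 24 h held 10 and 6 peaks and SOX17 at 24 h held 24 and 26, the most of any list, in a factor whose lists as a whole held 27328 and 41979 peaks. Set beside the 21937 other protein-coding genes, the share with at least as many peaks within 100 kb as Pdgfra for GATA6 was 11.2% in the 2 h lists, 4.35% in those of 4 h, 3.84% in those of 8 h and 0.634% in those of 48 h. The NANOG shares were 16.1%, 5.82%, 1.05% and 22.9% in the lists of 0, 2, 4 and 8 h, in that order. Those of SOX2 were 13.9%, 4.74%, 4.1% and 0.862% over the same times. For the PrE factors it was 0.0365% (8 genes) for GATA4 and 0.328% (72 genes) for SOX17. The lowest shares were thus those of GATA4, SOX17 and GATA6 at 48 h, followed by SOX2 at 8 h (by the record, the GATA6 share at 48 h is 3.84% and that at 4 h is 0.634%).

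**Figure D2:**
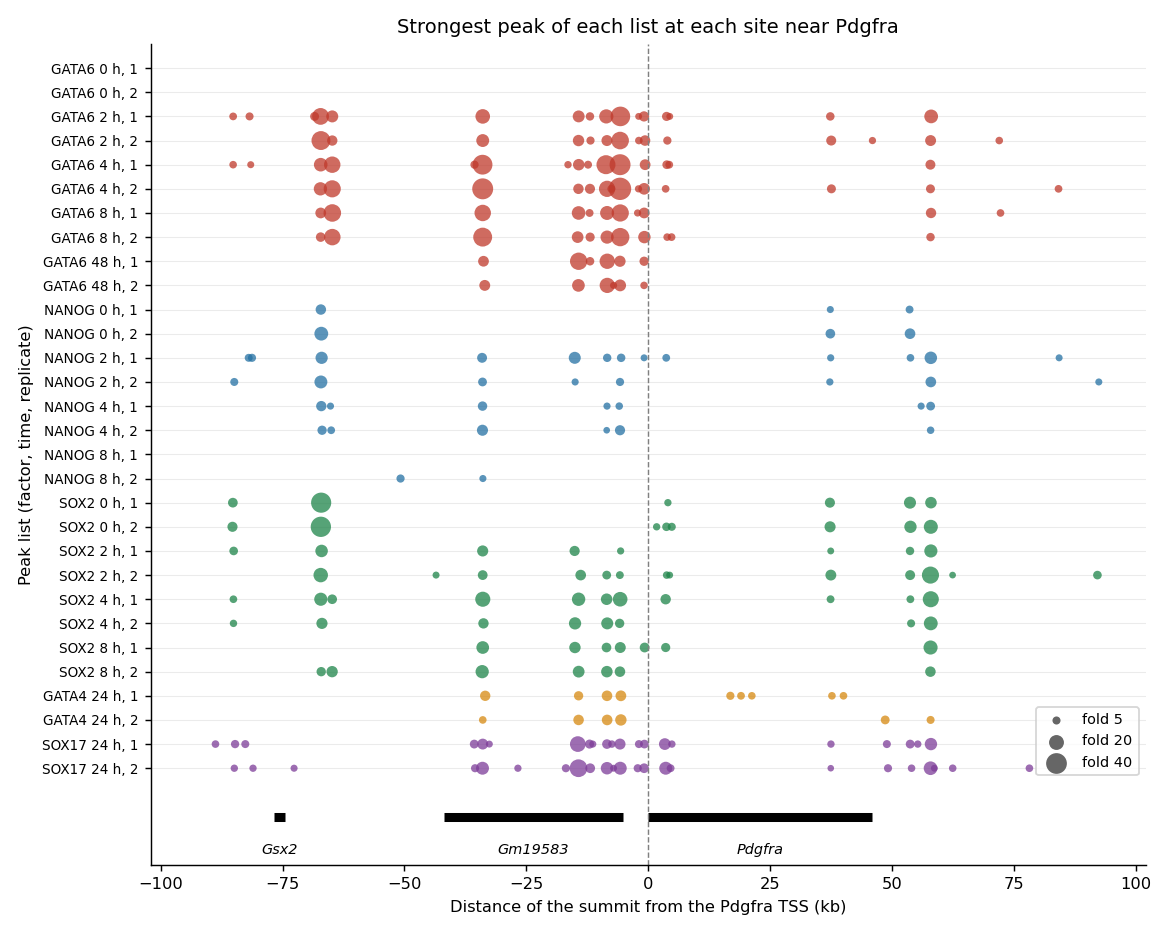
Position of the strongest peak of each list at each site, as distance of its summit from the Pdgfra TSS in kb (horizontal axis), for 30 lists (rows; factor, time by name, replicate number), with point area following the fold over local background and 3 genes of the window as bars. The sites 33.9, 14.3, 8.6, 5.7 and 0.7 kb upstream are empty in the NANOG and SOX2 0 h rows and filled in all GATA6 rows from 2 h to 48 h, while the site 67.1 kb upstream is filled at 0 h and empty in the rows of GATA6 48 h, GATA4 and SOX17.

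Of the 47 sites, 22 had a peak in a single list, 10 in 2 to 5 lists, 8 in 6 to 14 and 7 in 15 or more. The 7 broadest held 162 of the 293 peaks, or 55.3%. Upstream of the TSS lay 202 peaks and downstream 91. By the rule for naming sites (a peak in all 8 induced GATA6 lists, a summit within 1 kb of the TSS, or a peak in both 0 h lists of NANOG or SOX2), 11 sites are described in turn. The 36 others held 84 peaks, with a highest fold of 4.37 in the median site. Of these 36, 3 were in both GATA6 2 h lists, at 64.8, 12.0 and 1.9 kb upstream. SOX17 had a peak at 19 of the 36, and 10 of the 22 single-list sites were SOX17's.

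A group of 5 sites had a GATA6 peak in all 8 induced lists and no NANOG or SOX2 peak at 0 h. These lay 33.9, 14.3, 8.6, 5.7 and 0.7 kb upstream. Values are the fold of the strongest peak of a list at the site, which is the authors' enrichment over local background, with replicate 1 before replicate 2. At the strongest, 5.7 kb upstream (chr5:75145875-75149104), GATA6 stood at 35.6 and 28.5 at 2 h, 40.9 and 46.7 at 4 h, 27.3 and 31.0 at 8 h, and 10.8 and 12.2 at 48 h. The 4 h lists were the highest and the 48 h lists the lowest, with 2 h and 8 h overlapping. Behind these folds stood 169 and 110 fragments over the summit at 2 h and 42 and 50 at 48 h. The difference between 48 h and 2 h was -1.47 ± 0.18 on the log2 scale (SE, n = 2 lists each), and the 4 times differed (exact permutation F test, p = 0.0190, adjusted p = 0.0476 over 5 sites). The mean fold at 2 h stood at percentile 97.9 of the 44770 GATA6 2 h regions of the genome.

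The site 33.9 kb upstream (chr5:75117710-75119198) was highest at 4 h and lowest at 48 h. GATA6 stood at 19.1 and 14.7 at 2 h, 36.4 and 40.8 at 4 h, 24.7 and 33.0 at 8 h, and 9.84 and 10.1 at 48 h. No time points overlapped (exact permutation F test, p = 0.00952, adjusted p = 0.0476), and the difference between 48 h and 2 h was -0.75 ± 0.19 on the log2 scale. By the record the order of the times changes at both sites, and the difference between 48 h and 2 h becomes 0.77 ± 0.28 at 33.9 kb and -0.13 ± 0.19 at 5.7 kb. Both calls were lost without either 4 h list, either 8 h list or replicate 2 at 48 h, with an adjusted p from 0.0571 to 0.119 (exact permutation), and that at 33.9 kb also without replicate 2 at 2 h (adjusted p = 0.0714). With summits merged within 250 bp, 4 sites could be tested and 0 passed.

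At 3 sites of the group the test was not passed. The site 14.3 kb upstream (chr5:75136802-75139152) had GATA6 folds of 12.4 and 11.2 at 2 h, 11.4 and 9.12 at 4 h, 16.5 and 11.8 at 8 h, and 27.6 and 14.2 at 48 h. The 48 h lists lay above those of 2 h and 4 h and overlapped those of 8 h (0.75 ± 0.48 from 2 h to 48 h on the log2 scale, adjusted p = 0.190, exact permutation). The site 8.6 kb upstream (chr5:75142710-75144557) had 18.1 and 10.3 at 2 h, 33.4 and 24.1 at 4 h, 17.5 and 15.4 at 8 h, and 21.3 and 21.1 at 48 h, a difference of 0.63 ± 0.41 (adjusted p = 0.0833, exact permutation). Without replicate 1 at 2 h that site passed the test (1.04, adjusted p = 0.0238, exact permutation). The site 0.7 kb upstream (chr5:75150773-75152397), which reaches across the TSS, had 8.88 and 9.40 at 2 h, 9.91 and 11.8 at 4 h, 9.89 and 13.5 at 8 h, and 7.04 and 4.21 at 48 h, a difference of -0.75 ± 0.37 (adjusted p = 0.0794, exact permutation). By the record the 3 differences are 0.25, 0.26 and 0.34 with the same p. A p that misses the threshold does not show that these sites stayed level.

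The order of the 5 sites within a list differed between the times. The fold at 5.7 kb divided by that at 14.3 kb in the same list was 2.88 and 2.54 at 2 h, 3.59 and 5.12 at 4 h, 1.65 and 2.62 at 8 h, and 0.392 and 0.861 at 48 h. The site 5.7 kb upstream was the strongest of the 5 in every 2 h and 4 h list and in replicate 1 at 8 h, and the site at 33.9 kb in replicate 2 at 8 h. At 48 h the site at 14.3 kb led in replicate 1 and that at 8.6 kb in replicate 2. By the record these lists are of 4 h, and those of 48 h are the pair led by 5.7 kb and 33.9 kb, with ratios of 1.65 and 2.62, so the change of order at 48 h depends on the names. The 2 lists named 48 h had 80 fragments each over the summit at 14.3 kb, over local backgrounds of 1.93 and 4.70 fragments, and the folds were 27.6 and 14.2. These ratios were chosen after the values had been seen and carry no test.

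**Figure D3:**
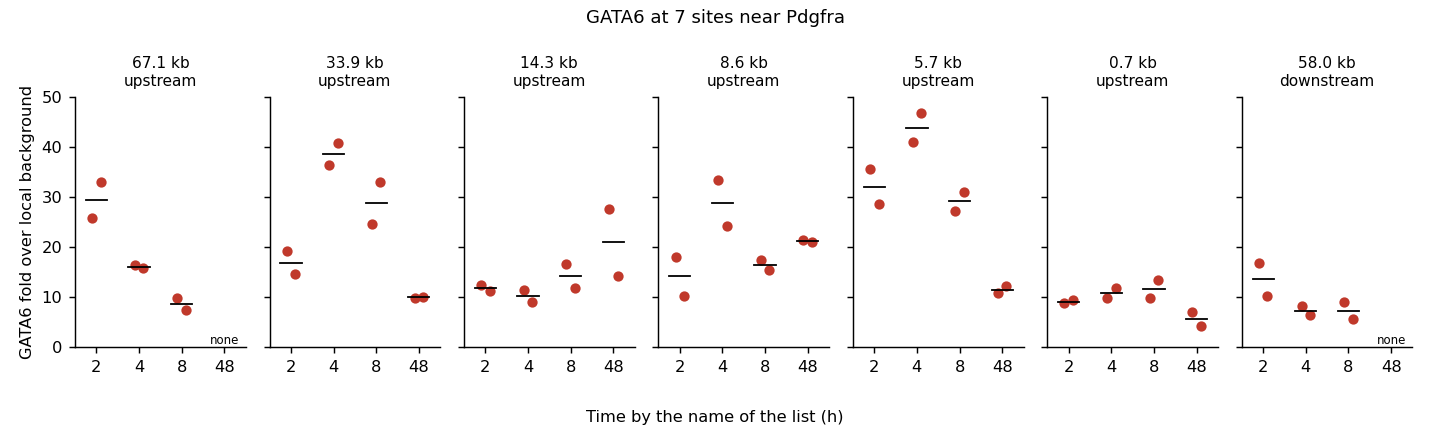
GATA6 fold over local background (vertical axis) at 7 sites near Pdgfra in the lists named 2, 4, 8 and 48 h (horizontal axis); points are the 2 lists, lines their mean, and "none" marks a pair of lists with no peak. The 5 middle panels held a peak in all 8 lists, with 48 h lowest at 33.9, 5.7 and 0.7 kb upstream. At 14.3 kb upstream the mean was highest at 48 h, where the lists overlapped those of 8 h. The outer panels, 67.1 kb upstream and 58.0 kb downstream, held none at 48 h.

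NANOG and SOX2 had no peak at these 5 sites at 0 h. At 2 h and 4 h each had a peak in at least 1 list at most of them. At 8 h this held for SOX2, while NANOG had a peak at 33.9 kb alone, in 1 list. At 33.9 kb NANOG stood at 8.21 and 6.19 at 2 h, 7.29 and 10.6 at 4 h and, in replicate 2 alone, 3.59 at 8 h. SOX2 at the same site stood at 10.6 and 7.92 at 2 h, 20.6 and 9.04 at 4 h, and 14.2 and 15.6 at 8 h. So SOX2 was still there in both 8 h lists, and NANOG in a single list. At 5.7 kb NANOG stood at 5.66 and 5.19 at 2 h and 4.19 and 8.65 at 4 h, with none at 8 h. SOX2 stood there at 3.72 and 4.69 at 2 h, 19.3 and 7.11 at 4 h and 10.3 and 9.43 at 8 h. At 14.3 kb NANOG had peaks at 2 h alone (12.6 and 3.62). SOX2 had 8.70 and 9.63 at 2 h, 15.9 and 13.2 at 4 h and 11.2 and 12.1 at 8 h. At 8.6 kb NANOG had 5.53 in replicate 1 at 2 h and 3.69 and 2.99 at 4 h, and SOX2 had 6.17 in replicate 2 at 2 h, 11.5 and 12.6 at 4 h and 7.70 and 11.5 at 8 h. SOX2 was present in both lists at 4 and 8 h at 4 of the 5 sites, and NANOG in both lists at 8 h at none. In the genome 1721 regions were in both GATA6 lists of 2, 4, 8 and 48 h and in no pair of NANOG or SOX2 lists at 0 h. Of these, 46.3% held SOX2 in both lists of 4 h and of 8 h, and 3.25% held NANOG in both 8 h lists, so that none of 5 is near the background for NANOG, and no test was made of either share. At 0.7 kb upstream, next to the TSS, NANOG had a peak in 1 list (3.42, replicate 1 at 2 h) and SOX2 in 1 (7.98, replicate 1 at 8 h). No test was made between times where a list had no peak.

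At 24 h GATA4 had peaks in both lists at 4 of these 5 merged sites and SOX17 at all 5. At 33.9 kb the GATA4 summits of the 2 lists stood 511 and 7 bp downstream of the GATA6 2 h summit, so the lists share the merged site and not the summit. Among the same 1721 regions of the genome 56.7% held GATA4 and 82.9% held SOX17, so that most of these regions held them too, and nothing particular to Pdgfra is read from these counts. GATA4 folds were 9.01 and 4.35 at 33.9 kb, 7.04 and 9.38 at 14.3 kb, 9.51 and 9.63 at 8.6 kb, and 9.86 and 11.2 at 5.7 kb upstream, with no peak at 0.7 kb. SOX17 was highest at 14.3 kb, with 22.4 and 28.9 (135 and 169 fragments over the summit). It had 10.1 and 14.8 at 33.9 kb, 7.63 and 13.7 at 8.6 kb, 10.4 and 14.9 at 5.7 kb, and 6.09 and 7.77 at 0.7 kb. The local background that the peak caller used was itself raised at 8.6 kb (2.41 to 5.96 times the background coverage of the list, median 4.89 over 18 lists), at 5.7 kb (2.60 to 4.64 times, median 2.84 over 20 lists) and at 14.3 kb (1.11 to 4.12 times, median 2.25 over 18 lists). The fold divides by it, and its part in the differences between sites was not tested.

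The distal site 67.1 kb upstream (chr5:75084290-75086698, intergenic, 9572 bp from the TSS of Gsx2, a homeobox gene) was held by the ES cell factors before induction and by GATA6 from 2 h, and had no peak of GATA4 or SOX17. SOX2 stood at 37.7 and 38.2 at 0 h, at percentiles 99.7 and 99.6 of its lists, at 13.8 and 18.8 at 2 h, at 15.3 and 10.7 at 4 h, and at 7.15 in replicate 2 at 8 h with none in replicate 1. NANOG stood at 9.24 and 17.1 at 0 h, 13.1 and 14.8 at 2 h, 8.94 and 7.03 at 4 h, with none at 8 h. GATA6 stood at 25.7 and 33.0 at 2 h, 16.5 and 15.7 at 4 h and 9.89 and 7.48 at 8 h, and had no peak at 48 h (by the record, at 4 h). By the names, each pair of GATA6 lists lay below the pair before it. Since 2 lists had none, the GATA6 times could not be entered in the test over 8 lists.

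The site 64.8 kb upstream (chr5:75086717-75088659) lies directly beside it. It was outside the naming rule and was chosen after its values were seen. GATA6 stood there at 12.6 and 9.01 at 2 h, 24.6 and 26.9 at 4 h and 28.3 and 24.8 at 8 h, and again had no peak at 48 h (by the record, at 4 h). The 4 h and 8 h lists overlapped and lay above those of 2 h. SOX2 and NANOG had none at 0 or 2 h. NANOG had 3.58 and 4.51 at 4 h, and SOX2 had 7.65 in replicate 1 at 4 h and 11.1 in replicate 2 at 8 h.

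Past the end of the gene, the site at 58.0 kb downstream (chr5:75209845-75210686) had SOX2 in all 8 lists, with 11.6 and 17.6 at 0 h, 15.3 and 26.8 at 2 h, 23.5 and 17.1 at 4 h and 17.8 and 9.32 at 8 h, which overlapped. NANOG, with none at 0 h, stood at 13.8 and 9.71 at 2 h and 6.15 and 4.15 at 4 h. GATA6 had 16.9 and 10.2 at 2 h, 8.26 and 6.46 at 4 h, 9.03 and 5.61 at 8 h and none at 48 h (by the record, none at 4 h). SOX17 stood there at 13.4 and 16.6 at 24 h, so that this site carried SOX2 before induction and SOX17 after it, and GATA4 had 4.94 in replicate 2 alone.

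A further 4 sites were held by SOX2 in both 0 h lists. At 53.8 kb downstream (chr5:75205705-75206349) SOX2 stood at 12.7 and 13.3 at 0 h, 5.51 and 8.24 at 2 h and 4.61 and 4.96 at 4 h, with none at 8 h, and NANOG at 4.73 and 9.64 at 0 h. Each pair of SOX2 lists lay below the pair before it, and GATA6 had no peak there in any list. At 37.5 kb downstream (chr5:75189303-75190130, in an intron of Pdgfra) SOX2 had 8.49 and 10.5 and NANOG 3.54 and 7.71 at 0 h, with GATA6 at 5.71 and 8.35 at 2 h. At 85.1 kb upstream (chr5:75066844-75067805, intergenic) SOX2 had 7.79 and 8.58 at 0 h, and GATA6 had a peak in 1 of the 2 h and 1 of the 4 h lists. Both SOX17 24 h lists held a peak at each of these, with a mean fold of 5.22 at 53.8 kb downstream, 3.43 at 37.5 kb downstream and 4.65 at 85.1 kb upstream. At 3.7 kb downstream (chr5:75155001-75156321, at an exon of Pdgfra in its untranslated part) SOX2 had 3.87 and 5.72 at 0 h, GATA6 6.78 and 5.31 at 2 h, and SOX17 11.9 and 14.9 at 24 h, the highest values of that site.

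**Figure D4:**
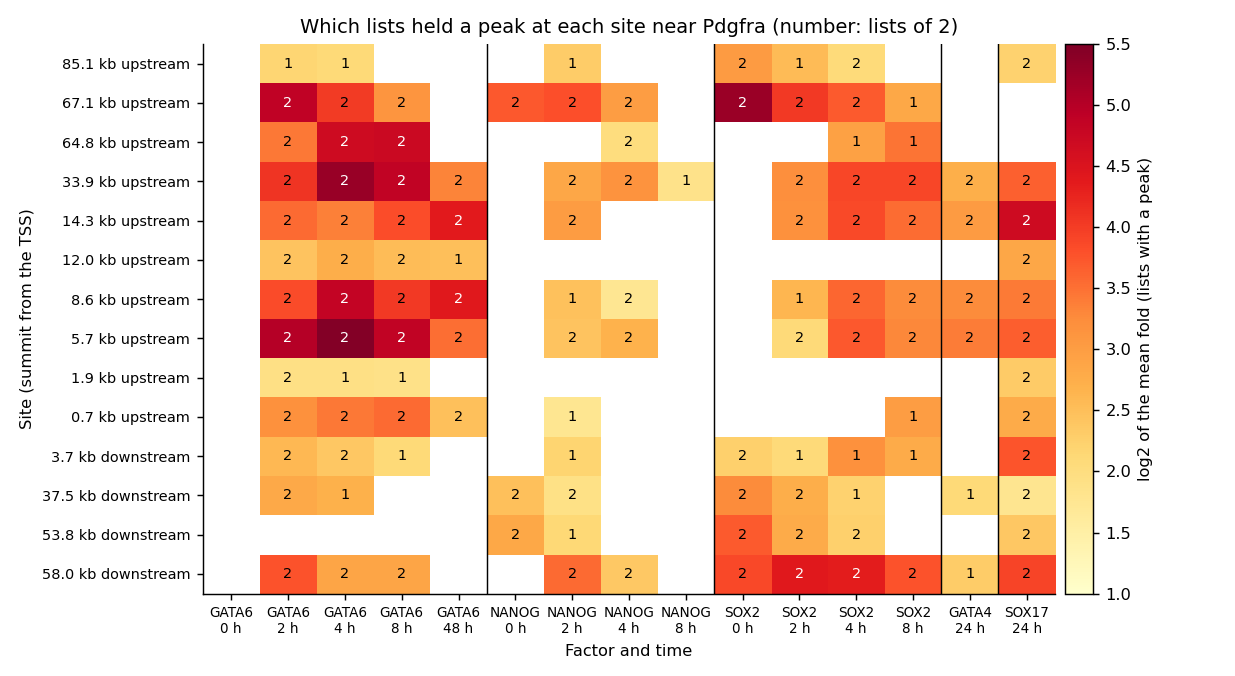
Number of the 2 lists (printed) with a peak at the named sites and the sites of both GATA6 2 h lists (rows, by distance of the summit from the TSS) for each factor and time (columns), coloured by the log2 of the mean fold over the lists that held a peak; white means no peak. The sites 33.9, 14.3, 8.6 and 5.7 kb upstream are white under NANOG and SOX2 at 0 h and filled under SOX2 at 8 h, GATA4 and SOX17, and the site 67.1 kb upstream is filled at 0 h and white under GATA6 48 h, GATA4 and SOX17.

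The 12 sites held by both GATA6 2 h lists were then followed over the other groups, counting a site where both lists of a group had a peak. The background is the share of the 44770 GATA6 2 h regions of the genome that met the same condition. Of the 12, the GATA6 lists of 0 h held 0 (0.0067% of the regions of the genome), those of 4 h held 10 (63.8%), those of 8 h held 9 (38%) and those of 48 h held 5 (5.79%). By the record the numbers for 4, 8 and 48 h are 5, 10 and 9. NANOG was found at 2 sites before induction (13.2%), at 6 in the 2 h lists (36.8%), at 6 in the 4 h lists (15.1%) and at 0 in the 8 h lists (1.08%). SOX2 was found at 4 before induction (26.1%), at 6 in the 2 h lists (33.5%), at 6 in the 4 h lists (35.7%) and at 5 in the 8 h lists (15%). GATA4 was at 4 (5.61%) and SOX17 at 10 (25.4%). No test was made of these shares, since the sites of 1 locus are not replicates.

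By the median, these 12 sites were also stronger and wider than the regions of the genome. Not each of them was: those 1.9 and 12.0 kb upstream and 3.7 kb downstream stood at percentiles 4.46, 28.6 and 39.1 of the 2 h fold. Length is that of the region merged over all 30 lists. The median 2 h fold of the 12 was 11.3 against 6.92 over all regions, and their median length 1557 bp against 828 bp. Among the 14216 regions with a 2 h fold of at least 9.14, the lowest of the 5 kept sites, 11.5% held GATA6 at 48 h, 11.5% held GATA4 and 37.9% held SOX17. The cut was taken from the kept sites, so all 5 pass it, and these shares do not pair with the counts out of 12. The part of strength and width in the counts near Pdgfra was not tested beyond this. The 12 fell into 4 sites with NANOG or SOX2 at 0 h and 8 without. Of the 4, none kept GATA6 at 48 h (5.38% of such regions of the genome), none held GATA4 (6.45%) and 3 held SOX17 (43.7%). Of the 8, 5 kept GATA6 at 48 h (5.96%), 4 held GATA4 (5.29%), 7 held SOX17 (18.2%), 4 held NANOG at 4 h (9.76%) and 4 held SOX2 at 8 h (9.36%). Of the 4, 2 held NANOG at 4 h (28.7%) and 1 held SOX2 at 8 h (29.4%). In the 2 h lists NANOG was at 3 of the 8 (25.1%) and 3 of the 4 (66.8%). SOX2 at 2 h was at 3 of the 8 (20.5%) and 3 of the 4 (67%). By the record GATA6 at 48 h was at 2 of the 4 (38.2% of such regions) and at 7 of the 8 (37.9%).

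Summits of the different factors were close but not always at the same place. At 33.9 kb the GATA6 summits of the 2, 4 and 8 h lists lay within 39 bp of the 2 h reference summit, and those of SOX17 4 and 47 bp from it. In the lists named 48 h (by the record, 4 h) the GATA6 summits lay 157 and 417 bp downstream of it, and the GATA4 summits 511 and 7 bp downstream. The window at the replicate 1 summit at 48 h held 2 matches to the GATA letters, the nearer centred 3.5 bp from the summit, where the 2 h window held none. At 8.6 kb the GATA6 summit lay at the reference and 134 bp downstream of it in the 2 h lists, 65 bp upstream and 165 bp downstream in the 4 h lists, 165 bp downstream in both 8 h lists, and 200 bp downstream in both 48 h lists. The window at 165 bp, printed above, held 4 matches, and that at 200 bp held 2.

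At 5.7 kb all 8 GATA6 summits lay within 82 bp of the reference, in windows with no match. The GATA4 summits lay 103 and 100 bp downstream, in windows with 2 matches, the nearest of replicate 2 centred 2.5 bp from the summit. The first of these matches began at the base directly after the end of the printed 2 h window. On the other side, the window of the SOX2 2 h replicate 2 summit, 108 bp upstream, also held 2 matches. So the absence of a match at the GATA6 summits depends on where the windows end. At 14.3 kb GATA6 at 2, 4 and 48 h, GATA4 and replicate 2 of SOX17 had summits within 51 bp of the reference. There the strongest NANOG peaks at 2 h lay 804 and 725 bp upstream of it. The strongest SOX2 peaks lay 832 bp upstream or 414 bp downstream at 2 h, 17 and 744 bp upstream at 4 h, and 765 and 3 bp upstream at 8 h. Replicate 2 of SOX2 at 4 h also held a weaker peak with its summit 1 bp from the reference. In the counts by merged site all these peaks fall together, although the NANOG and GATA6 summits of 2 h stood well apart.

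**Figure D5:**
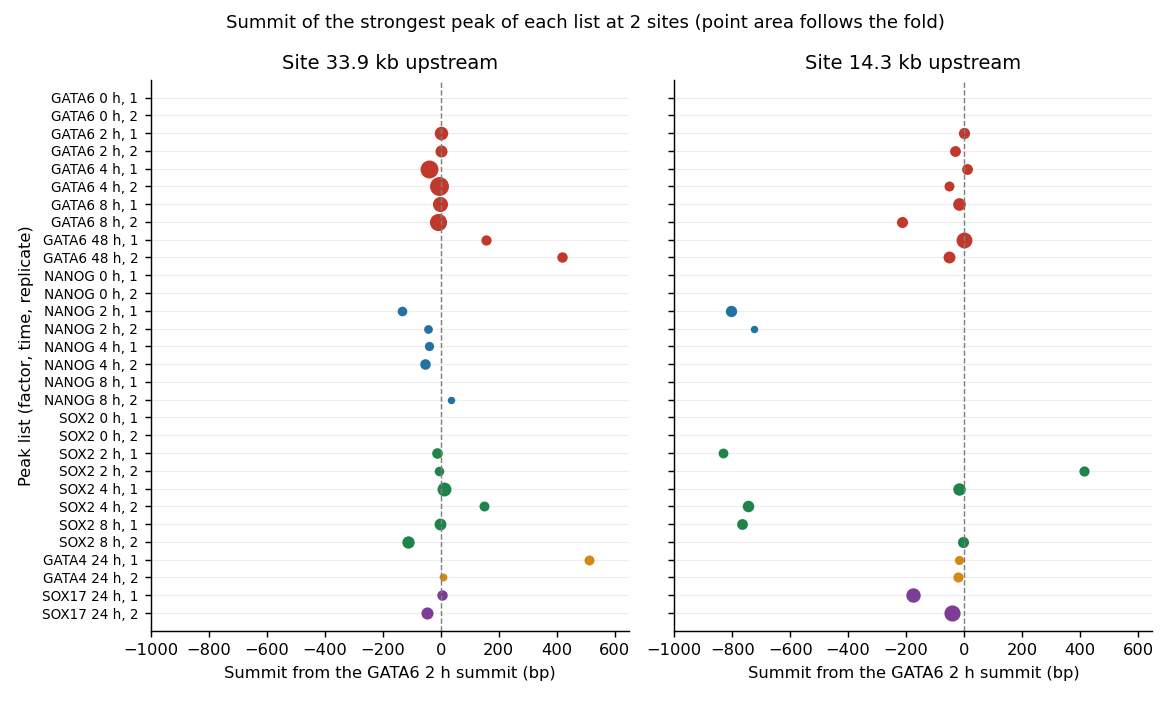
Summit of the strongest peak of each list (rows) as distance in bp from the GATA6 2 h reference summit (horizontal axis) at the sites 33.9 kb upstream (left) and 14.3 kb upstream (right), with point area following the fold. GATA6 at 48 h stands 157 and 417 bp downstream on the left, and NANOG at 2 h 804 and 725 bp upstream on the right.

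The other genes of PDGF signalling were given by their peaks within 100 kb of the TSS, as means of 2 lists. No gene of the other 15 reached Pdgfra's count for GATA6 at 48 h (6), NANOG at 4 h (7), SOX2 at 8 h (8.5), GATA4 (8) or SOX17 (25). Elsewhere some of them did. The GATA6 count of Pdgfra was reached by 6 genes in the 2 h lists, and by 2 in each pair named 4 h or 8 h. Its NANOG count was reached by 4 genes before induction, 1 in the 2 h lists and 4 in the 8 h lists. For SOX2, 4 genes reached it before induction, then 2 in each of the 2 h and 4 h pairs. By the record the GATA6 count of Pdgfra at 48 h is 11.5, which 2 of the 15 reached, Kit with 14.5 and Src with 14, and the GATA6 48 h counts that follow are of 4 h. Among the ligands, Pdgfa had 9.5 GATA6 peaks at 2 h, 0 at 48 h and 10.5 SOX17 peaks, Pdgfb had 25, 2 and 11, Pdgfc had 14, 0 and 1.5, and Pdgfd had 3.5, 1 and 0. The other receptor for these ligands, Pdgfrb, had 15 GATA6 peaks at 2 h, 0 at 48 h, 1 GATA4 peak and 3 SOX17 peaks. Kit and Kdr, receptor tyrosine kinase genes 422.6 and 826.2 kb from Pdgfra on the same chromosome, had 23 and 7.5 GATA6 peaks at 2 h, 1.5 and 0 at 48 h, and 7.5 and 1 SOX17 peaks. Of the signalling genes, the kinase gene Src had the most GATA6 peaks at 2 h (32.5) and the adaptor gene Shc1 the most SOX17 peaks (24.5). Pik3r1, the regulatory subunit of phosphoinositide 3-kinase, came nearest to Pdgfra for GATA6 at 48 h (4.5 peaks) and for GATA4 (5.5 peaks), with 16 SOX17 peaks. The adaptor gene Grb2, the phosphatase gene Ptpn11, the phospholipase gene Plcg1, the kinase subunit gene Pik3ca and the transcription factor gene Stat3 had 0 to 1.5 GATA6 peaks at 48 h and 2 to 6 SOX17 peaks.

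Over the 30 lists, the genes whose number of peaks (log2(n + 1), minus the mean of the list over all protein-coding genes) ran most like that of Pdgfra were Cst13 (Pearson r = 0.894), Cst8 (0.886), 9230104L09Rik (0.886), AA986860 (0.881) and Cox4i2 (0.875), of 4762 genes with at least 50% of its total that lay on other chromosomes or over 1 Mb away. Cst13, Cst8 and 9230104L09Rik lie within 100 kb of each other on chromosome 2 and share peaks, and the 30 lists share depth and list size within a group. This is a description and no test. Cst13 had means of 11.5 GATA6 peaks at 2 h, 4 at 48 h and 13 SOX17 peaks, and AA986860 on chromosome 1 had 18, 6 and 19.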

How the data were processed

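CUT&RUN libraries of GATA6, NANOG, SOX2, GATA4 and SOX17 were each deposited as a narrowPeak list. Following the study's methods, the authors aligned reads to mm10 with Bowtie2, removed blacklisted regions, kept duplicates, and called narrow peaks per library with MACS with a rabbit anti-rabbit antibody library as control. Each list holds, as deposited by the authors, the fold enrichment at the summit (a ratio to local background with 1 added to both), the -log10 p-value and -log10 q-value, and the summit position; the score column was not used. A peak list shows only regions past the caller's threshold, and the fold moves with depth and with the local background.

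Members and lists were chosen with earlier results of these data known. Peaks with a summit within 100 kb of the TSS were merged at 1 bp overlap, and a list's value at a site is that of its strongest peak. Named sites were those with a peak in all 8 induced GATA6 lists, with a summit within 1 kb of the TSS, or with a peak in both 0 h lists of NANOG or SOX2. Named genes were Pdgfra, a fixed PDGF list and the 5 genes with the most similar pattern. Numbers of peaks, as log2(n + 1), and log2 folds were compared over 4 times by two-sided exact permutation of an F statistic, with Benjamini-Hochberg adjustment over 3 factors or over the sites tested. By exact permutation, 2 against 2 lists cannot go below p = 0.333 and were not tested alone. Fragments over a summit were solved from fold and p-value as whole numbers (tolerance 0.02%), for 277 of 277 member peaks outside GATA4, 276 of them with a single solution. The tests were checked on simulated data. Alternatives were a q threshold, the strongest 10000 peaks of each list, other windows, list-size scaling, summit merging within 250 bp, percentile or -log10 q in place of the fold, each list left out, the replicate block, the recorded times, and, added after seeing the data, pileup over background coverage. Work was done in Python 3.11.15 with numpy 2.4.6, pandas 2.3.3, scipy 1.17.1 and matplotlib 3.10.9.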

Additional observations from a re-analysis of the deposited data

How the results depend on the processing

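The GATA6 difference in number of peaks between 48 h and 2 h (-1.44) reversed in the strongest 10000 peaks of each list (0.11, exact permutation p = 0.0857) and per 10000 peaks (1.77, p = 0.0190, exact permutation). The GATA6 lists named 48 h held 5933 and 9767 peaks and the NANOG 8 h lists 5510 and 2255. These entered whole, so the cut at 10000 did not make the lists equal in size. The GATA6 difference ranged from -1.51 to -1.36 with each list left out. The NANOG difference was 0.37 (exact permutation p = 0.171) in the strongest 10000 peaks, 1.75 (exact permutation p = 0.0571) within 50 kb and 0.078 (exact permutation p = 0.829) per 10000 peaks, and 1.17 to 2 with each list left out (exact permutation p from 0.00952 to 0.0952). The SOX2 difference reversed in the strongest 10000 peaks (-0.42, exact permutation p = 0.00952), and ranged from 0.085 to 0.82 with each list left out. The count of sites whose GATA6 fold differed over time, 2 of 5 (3 at an unadjusted p under 0.05), was 1 with percentiles (2 unadjusted), 1 with -log10 q (4 unadjusted), 0 of 4 with summits merged within 250 bp (2 unadjusted), 3 with pileup over background coverage, chosen after seeing the data, and 0 to 3 with each list left out (2 to 3 unadjusted), by the exact permutation test. The sites held by both GATA6 2 h lists, 12 as reported, were 13 with summits merged within 250 bp. Of these, 4 held GATA6 at 48 h and 3 held GATA4, against 5 and 4 as reported. With a peak in either list counted, the sites were 18. NANOG at 2 h was then at 11 and SOX2 at 4 h at 10, against 6 and 6 as reported. No share over the genome is given beside these alternative counts. The cause of these changes was not tested.

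Labels number the lists of a group without saying that equal numbers share a culture. Deviations of same-numbered lists correlated at -0.0903 to 0.0448 for GATA6, -0.0812 to 0.0289 for NANOG and -0.170 to 0.0853 for SOX2. Whether lists with equal numbers came from a shared culture was not tested. With a replicate block the GATA6 difference was -1.44 (exact permutation p = 0.0833), that of NANOG 1.58 (exact permutation p = 0.0417) and that of SOX2 0.45 (exact permutation p = 0.5), and 0 sites of 5 passed for the fold (2 unadjusted). Depth and local background limit what an absent peak means.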
